A study of Mus musculus with 12 samples.

Results

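The proneural bHLH transcription factors followed here are Neurog1, Neurog2, Neurog3, Neurod1, Neurod4, Nhlh1, Nhlh2, Atoh1 and Ptf1a. They were taken by name, as every probe set whose single gene symbol is one of these 9, which gave 14 probe sets. They are 9 of the 18193 genes that the mouse array names in this way. The samples were total RNA of CAG150 and HM1 mouse embryonic stem cells, each taken at day 6 and at day 4 of differentiation into neurons. That makes 4 groups of 3 arrays. CAG150 cells have CAG repeats expanded beyond the usual length, from what is known of the work in the Huntington's disease gene Htt. HM1, the line set against them, is male and has no functional Hprt. No other allele or agent is named for any group, there was 1 line of each kind, and the labels leave unsaid if the 3 samples came from 3 cultures. P-values therefore measure the spread between these samples, which may be technical.

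Proneural factors are basic helix-loop-helix proteins that pair with E proteins, bind short DNA motifs called E-boxes and start the neuronal programme in dividing progenitors. They switch on Notch ligands, and Notch signalling in the neighbouring cells, through Rbpj and the Hes repressors, holds proneural genes down there. Neurogenins and the Ptf1a and Atoh1 genes act early and in different regions of the neural tube, while Neurod and Nhlh genes follow in cells that are leaving the cell cycle.

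The array medians lay between 19.2 and 25.9 in the authors' intensity units, and the number of arrays limits the precision. Set against the labelled tissue, nervous system, all 6 neural progenitor and all 6 postmitotic neuron markers had enough signal to be fitted, and so had all 5 pluripotency and all 5 fibroblast and smooth muscle markers. Other lists were fitted in part: neural crest and sensory neuron (4 of 5 with a probe set), visceral endoderm (3 of 6) and glia (2 of 5). Pancreatic endocrine (0 of 4) and hair cell (0 of 3) markers were not fitted. The titles gave the groups. The descriptions put all 3 HM1 samples titled day 6 at day 4, and number every day 6 sample of both lines as replicate 1. This doubt touches the day comparison in HM1 cells, the line comparison at day 6 and the difference between the day differences. Differences are on the log2(intensity + 16) scale, which understates the change of dim genes. They come from limma over 12280 genes with Benjamini-Hochberg adjustment, and rose, fell, higher, lower or passed is written for an adjusted p below 0.05. These are bulk samples, in which fewer cells of a type and less RNA per cell cannot be told apart.

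Between the days 6 of the 9 proneural genes, Neurog1, Neurog2, Neurod1, Neurod4, Nhlh1 and Nhlh2, rose in both lines. In CAG150 cells 7 of the 9 genes were higher at day 6 than at day 4 and 0 were lower, against 22.5% of all genes tested that were higher, 21.9% lower and 44.4% in either direction. In HM1 cells 6 of the 9 were higher and 0 lower, against 20.4%, 18.5% and 38.9%. Among the 7 fitted genes, the arrays of the days did not overlap for 7 in CAG150 cells, all higher at day 6, against 27.4% of all fitted genes higher and 27.6% lower. In HM1 cells they did not overlap for 6, all higher, against 24.8% and 24.3%.

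Between the lines the genes split. At day 6, 3 of the 9 were higher in CAG150 cells and 1 was lower, against 10.1% of all genes higher, 11.2% lower and 21.4% in either direction. At day 4, 4 were higher in CAG150 cells and 0 lower, against 7.87%, 7.92% and 15.8%. Among the 7 fitted genes, the lines did not overlap for 3 higher and 1 lower in CAG150 cells at day 6, against 18.8% and 19.8% of all genes, and for 4 higher and 1 lower at day 4, against 17.3% and 17.1%. The 2 genes left out of the fit, Neurog3 and Atoh1, were below the signal filter, which lies at an intensity of 11.9. Ptf1a passed that filter only through CAG150 cells at day 6, so it had to differ there: its inclusion among the genes higher in CAG150 cells between the days and at day 6 is a description.

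**Figure D1:**
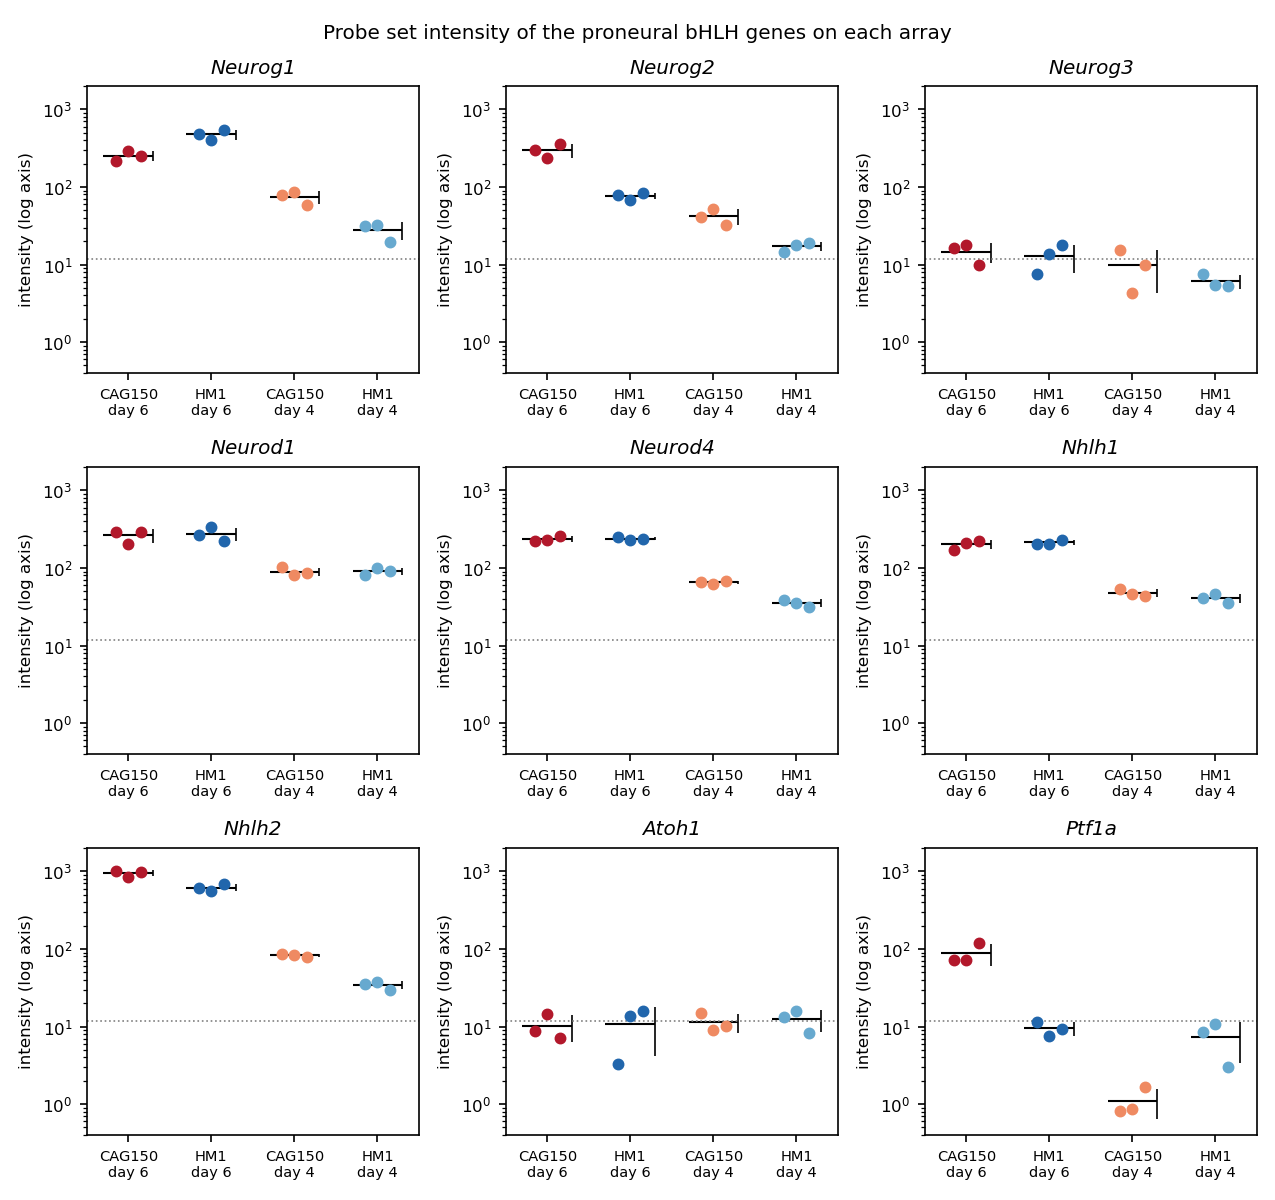
Intensity of the probe set used for each gene on every array, on a log axis, by group, with day 6 left of day 4 and CAG150 left of HM1. Points are the 3 arrays, horizontal lines the mean, vertical bars the SD and the dotted line the filter at 11.9; the Neurog3 and Atoh1 points lie around that line and the Ptf1a points clear it only in CAG150 cells at day 6.

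The neurogenins are described first, because they commit progenitors to a neuronal fate. The 250 bases before the transcript start of Neurog1 and Neurog2 are shown because both genes rose between the days and parted between the lines. The windows are from RefSeq, on GRCm38.p6, and read 5′ to 3′ on the strand of the gene, the Neurog1 window on the minus strand at chr13:56252181-56252430 and the Neurog2 window on the plus strand at chr3:127632886-127633135. Capitals would mark an E-box, CANNTG, or the core of the Rbpj site, TGGGAA on either strand, and neither window holds one.
Neurog1: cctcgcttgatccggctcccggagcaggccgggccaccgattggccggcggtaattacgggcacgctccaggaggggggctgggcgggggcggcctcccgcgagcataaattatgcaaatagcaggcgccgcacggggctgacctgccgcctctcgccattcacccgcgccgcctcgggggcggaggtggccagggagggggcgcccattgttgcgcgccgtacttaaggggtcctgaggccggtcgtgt
Neurog2: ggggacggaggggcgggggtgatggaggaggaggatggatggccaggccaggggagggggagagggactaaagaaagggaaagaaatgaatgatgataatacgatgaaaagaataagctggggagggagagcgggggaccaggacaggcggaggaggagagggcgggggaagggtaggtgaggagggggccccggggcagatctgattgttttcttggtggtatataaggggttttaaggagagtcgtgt

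Neurog1, which specifies sensory and other neurons, lies on chromosome 13. At day 6 its probe set 1438551_at read 215, 289 and 250.4 in CAG150 cells, against 483, 403 and 545 in HM1 cells. At day 4 it read 78.9, 85.3 and 58.7 in CAG150 cells, against 31.8, 31.9 and 19.5 in HM1 cells. The lines did not overlap at either day, and their order turned round: CAG150 cells were the lower at day 6 and the higher at day 4. The log2 difference of CAG150 from HM1 was -0.88 ± 0.16 (SE) at day 6, 1.84-fold lower in CAG150 cells (adjusted p = 0.002). At day 4 it was 1.05 ± 0.16, a 2.07-fold higher value (adjusted p = 0.000846). From day 4 to day 6 Neurog1 rose in both lines, by 1.57 in CAG150 cells and by 3.50 in HM1 cells, which is 2.97-fold and 11.3-fold (adjusted p = 7.49e-06 and 9.74e-09). The day difference was 1.93 smaller on the log2 scale in CAG150 than in HM1 cells, at -1.93 ± 0.23 (adjusted p = 0.000555). The second probe set, 1450836_at, read 29.2, 63.0 and 47.3 at day 6 in CAG150 cells, against 116, 87.1 and 102 in HM1 cells. Its day 4 values were 25.2, 25.2 and 19.9 in CAG150 cells, against 13.6, 1.63 and 3.10 in HM1 cells, so it turned the same way. In the fit with every probe set it differed by -0.94 at day 6 and by 0.87 at day 4 (adjusted p = 0.0217 and 0.0426), while its day difference in CAG150 cells, 0.63, did not pass (adjusted p = 0.0655).

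Neurog2 lies on chromosome 3, has 1 probe set and drives neurogenesis in cortex, spinal cord and midbrain. At day 6 it read 298, 236 and 362 in CAG150 cells, against 78.7, 68.4 and 82.8 in HM1 cells. The day 4 values were 41.5, 51.8 and 32.7 in CAG150 cells, against 14.6, 18.0 and 19.1 in HM1 cells. CAG150 cells lay above HM1 cells at both days, with no overlap. The difference was 1.75 ± 0.15 at day 6, or 3.36-fold (adjusted p = 5.02e-06), and 0.79 ± 0.15 at day 4, or 1.73-fold (adjusted p = 0.00342). It rose between the days by 2.43 in CAG150 cells and by 1.48 in HM1 cells (adjusted p = 7.91e-08 and 8.54e-06). The day difference was 0.96 ± 0.21 larger in CAG150 cells (adjusted p = 0.0264), but this call was lost without any 1 of 8 of the 12 arrays, where the adjusted p reached 0.0625. So at day 6 the 2 neurogenins stood on opposite sides of HM1: Neurog1 was lower in CAG150 cells and Neurog2 was higher.

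**Figure D2:**
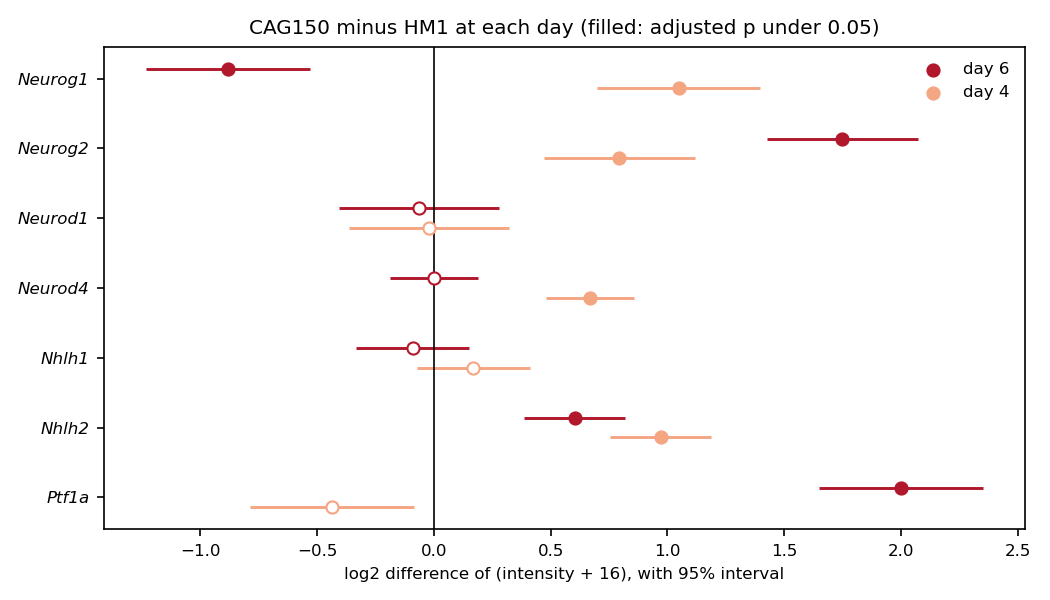
Log2 difference of CAG150 from HM1 for the 7 fitted genes at day 6 and at day 4, with 95% intervals and filled points for genes that passed. Neurog1 lies below 0 at day 6 (-0.88) and above 0 at day 4 (1.05), while Neurog2 and Nhlh2 lie above 0 at both days. Ptf1a, at 2.00 at day 6, was below the filter in its other groups, so its filled point there is a description and no test.

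Neurog3, the endocrine factor of the pancreas, lay at the filter. Its brighter probe set read 16.3, 17.6 and 9.89 at day 6 in CAG150 cells, against 7.47, 13.8 and 17.7 in HM1 cells. The day 4 values were 15.4, 4.29 and 9.81 in CAG150 cells, against 7.46, 5.49 and 5.22 in HM1 cells. The lines overlapped at both days, while the HM1 arrays of day 6 lay just above those of day 4. With no filter the difference did not pass in any comparison, with an adjusted p between 0.138 and 0.898. Pancreatic endocrine markers were not fitted either (0 of the 4 with a probe set).

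Neurod1 and Neurod4 act after the neurogenins in cells turning into neurons. Neurod1, on chromosome 2, is known for granule cells and pancreatic islets. At day 6 its probe set 1426413_at read 293, 204 and 293 in CAG150 cells, against 268, 334 and 225 in HM1 cells. At day 4 it read 101, 81.2 and 85.5 in CAG150 cells, against 81.0, 99.8 and 92.1 in HM1 cells. The lines overlapped at both days. The difference was -0.06 at day 6 with a 95% interval of -0.40 to 0.28, and -0.02 at day 4 with an interval of -0.36 to 0.32 (adjusted p = 0.82 and 0.948). Neurod1 rose between the days in both lines, 2.63-fold in CAG150 cells and 2.70-fold in HM1 cells (adjusted p = 1.63e-05 and 1.69e-05). Its other probe set, 1426412_at, read 246, 211 and 217 at day 6 in CAG150 cells, against 255, 299 and 382 in HM1 cells. There the groups did not overlap, and the difference of -0.43 did not pass (adjusted p = 0.0785).

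Neurod4, on chromosome 10, acts in midbrain and hindbrain neurons. At day 6 its probe set 1436694_s_at read 226, 229 and 260.5 in CAG150 cells, against 251, 229 and 233 in HM1 cells. On the day 4 arrays it had 66.6, 62.7 and 67.8 in CAG150 cells, against 39.0, 35.9 and 31.5 in HM1 cells. The lines overlapped at day 6 and were apart at day 4. The difference was 0.00 at day 6, with an interval of -0.19 to 0.19, and 0.67 ± 0.09 at day 4, or 1.59-fold (adjusted p = 0.00023). Neurod4 rose between the days, 3.11-fold in CAG150 cells and 4.94-fold in HM1 cells (adjusted p = 2.52e-08 and 2.29e-09), and the day difference was 0.67 smaller in CAG150 cells (-0.67 ± 0.12, adjusted p = 0.0102). These rest on the probe set: with the mean of the gene's probe sets the day 4 difference was 0.23 (adjusted p = 0.181) and the difference between day differences -0.44 (adjusted p = 0.157). The second probe set, 1418054_at, gave 0.38 at day 4 (adjusted p = 0.13), and the third did not exceed an intensity of 15.7.

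**Figure D3:**
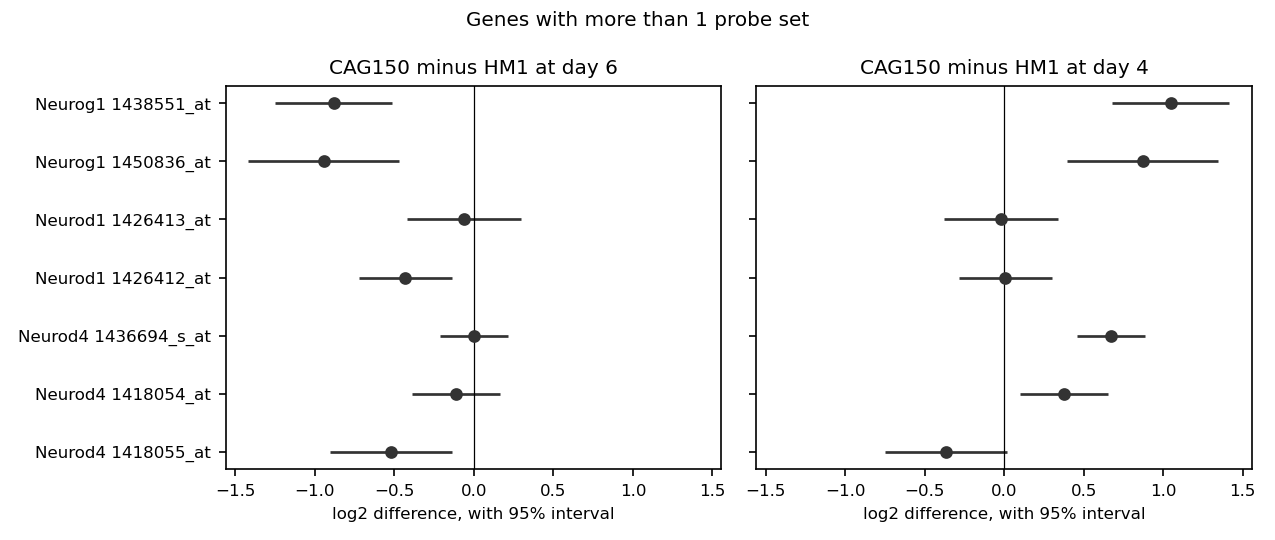
Log2 difference of CAG150 from HM1 for each probe set of Neurog1, Neurod1 and Neurod4, at day 6 on the left and day 4 on the right, with 95% intervals, from the fit with every probe set. Both Neurog1 probe sets lie below 0 at day 6 and above it at day 4, while the 3 Neurod4 probe sets differ at day 4, from 0.67 to -0.37.

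Nhlh1 and Nhlh2 encode related bHLH proteins of young postmitotic neurons. Their windows, on GRCm38.p6, are shown since both hold the E-box CAGATG that neurogenin and Neurod proteins are known to read. Capitals mark E-boxes and Rbpj cores. The Nhlh1 window is at chr1:172057597-172057846 on the minus strand and the Nhlh2 window at chr3:102009895-102010144 on the plus strand.
Nhlh1: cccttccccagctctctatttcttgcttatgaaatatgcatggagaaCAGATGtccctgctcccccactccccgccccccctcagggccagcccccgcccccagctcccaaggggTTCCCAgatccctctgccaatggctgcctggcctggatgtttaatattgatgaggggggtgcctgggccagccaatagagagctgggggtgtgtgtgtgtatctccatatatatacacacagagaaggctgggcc
Nhlh2: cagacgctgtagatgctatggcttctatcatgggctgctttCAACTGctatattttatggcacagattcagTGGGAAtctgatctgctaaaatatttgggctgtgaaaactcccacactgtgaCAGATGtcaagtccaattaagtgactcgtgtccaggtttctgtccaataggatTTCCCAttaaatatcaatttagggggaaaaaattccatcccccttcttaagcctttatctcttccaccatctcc

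The E-box CAGATG lies 203 bases before the Nhlh1 start and 127 bases before the Nhlh2 start, in a shared run of 9 bases, ACAGATGTC, that 54 of 27025 RefSeq windows of the same length hold (0.2%). The run was picked as the longest match of these 2 windows around CAGATG, so its share is a description and no test. CAGATG alone was in 14.5% of those windows and in the windows of 2 of the 9 genes. Searched on both strands, CANNTG was in 66% of windows and in 4 of the 9 genes, CAGCTG in 12.8% and in 1 gene, CACGTG in 6.05% and in none, and the Rbpj core TGGGAA in 21.5% and in 3 genes. CANNTG covers the other E-boxes searched. These matches describe the letters in the windows.

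Nhlh1, on chromosome 1, read 172, 208 and 223 at day 6 in CAG150 cells, against 206, 205 and 230.1 in HM1 cells. Its day 4 values were 53.3, 46.8 and 42.9 in CAG150 cells, against 41.4, 46.0 and 34.9 in HM1 cells. The lines overlapped at day 6 and at day 4. The difference was -0.09 at day 6 with an interval of -0.33 to 0.15, and 0.17 at day 4 with an interval of -0.07 to 0.41 (adjusted p = 0.618 and 0.344). Nhlh1 rose 3.39-fold in CAG150 cells and 4.06-fold in HM1 cells between the days (adjusted p = 1.05e-07 and 4.47e-08).

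Nhlh2, on chromosome 3, is known from hypothalamic neurons. At day 6 it read 1009, 855 and 984 in CAG150 cells, against 617, 562 and 679.5 in HM1 cells. On the day 4 arrays Nhlh2 had 85.7, 83.7 and 78.7 in CAG150 cells, against 35.3, 38.0 and 30.0 in HM1 cells. The CAG150 arrays lay above the HM1 arrays at both days. The difference was 0.60 ± 0.10 at day 6, or 1.52-fold (adjusted p = 0.000998), and 0.97 ± 0.10 at day 4, or 1.96-fold (adjusted p = 3.34e-05). Nhlh2 rose between the days in both lines, 9.76-fold in CAG150 cells and 12.6-fold in HM1 cells (adjusted p = 5.09e-10 and 2.75e-10). Those day differences did not differ past the threshold, by -0.37 with an interval of -0.67 to -0.06 (adjusted p = 0.208).

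**Figure D4:**
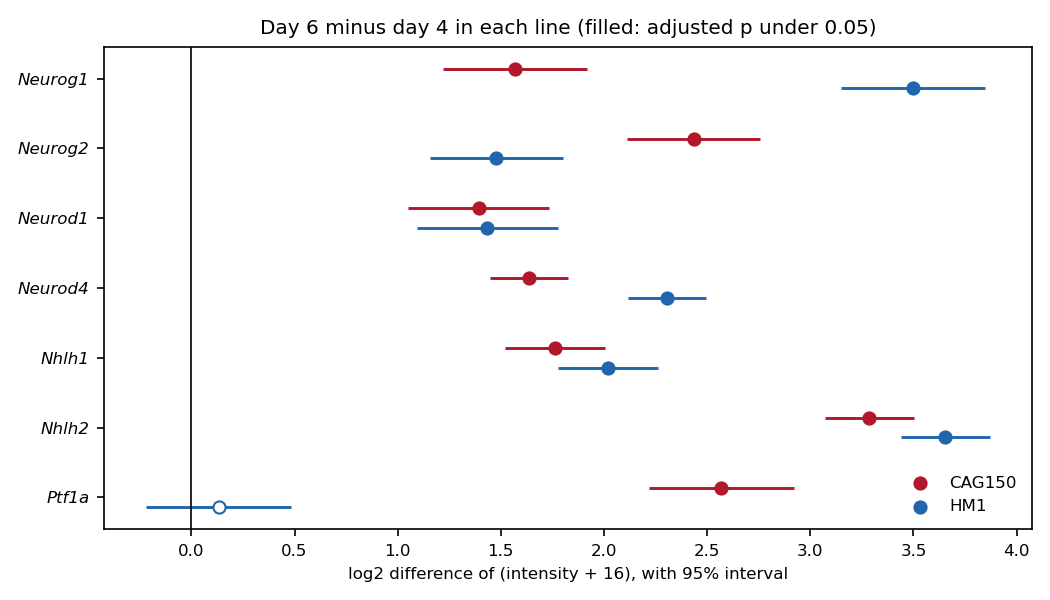
Log2 difference of day 6 from day 4 for the 7 fitted genes in CAG150 cells and in HM1 cells, with 95% intervals and filled points for genes that passed. Every gene lies above 0 in both lines, and Ptf1a in HM1 cells, at 0.13, is the point that did not pass. The filter fixed the direction of Ptf1a in CAG150 cells, so its filled point there is a description and no test.

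Atoh1, the factor of cerebellar granule cells and hair cells, was not detected clearly. It read 8.75, 14.5 and 7.18 at day 6 in CAG150 cells, against 3.29, 13.6 and 15.9 in HM1 cells. Its day 4 values were 14.9, 8.90 and 10.3 in CAG150 cells, against 13.2, 15.95 and 8.16 in HM1 cells. The lines overlapped at both days. With no filter the difference did not pass in any comparison, with an adjusted p between 0.758 and 0.978. Hair cell markers were not fitted (0 of 3).

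Ptf1a, on chromosome 2, specifies inhibitory neurons of the dorsal spinal cord and cerebellum, and works in a complex with Rbpj. Its window, on the plus strand at chr2:19445413-19445662, holds the Rbpj core, in capitals, 169 bases before the start and no E-box.
Ptf1a: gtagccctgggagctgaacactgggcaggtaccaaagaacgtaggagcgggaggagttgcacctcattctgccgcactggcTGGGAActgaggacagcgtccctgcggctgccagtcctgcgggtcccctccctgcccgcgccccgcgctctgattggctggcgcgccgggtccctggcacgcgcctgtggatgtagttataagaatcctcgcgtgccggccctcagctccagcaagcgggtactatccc

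Ptf1a read 72.8, 71.5 and 119 at day 6 in CAG150 cells, against 11.6, 7.60 and 9.19 in HM1 cells. At day 4 it read 0.813, 0.859 and 1.66 in CAG150 cells, against 8.44, 10.7 and 3.01 in HM1 cells. Only the CAG150 arrays at day 6 stood above the filter, at 71.5 to 119, while every other array read at most 11.6. The choice of fitted genes thus fixed the direction of the CAG150 values at day 6 against both other groups, and those differences are given with no test. The log2 difference of CAG150 from HM1 at day 6 was 2.00, or 1.03 with a pseudocount of 64, so its size rests on the value added. Between the HM1 days the difference was 0.13 with an interval of -0.22 to 0.49 (adjusted p = 0.549). At day 4 the lines were also apart, with CAG150 lower, but both lay below the filter and the difference did not pass (adjusted p = 0.0896). That day 4 difference passed without replicate 3 of CAG150 at day 6 (0.0298) and without replicate 3 of HM1 at day 4 (0.0416).

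The difference between the day differences passed for 4 of the 9 genes, against 3.61% of all genes. It was higher in CAG150 cells for 2, Neurog2 and Ptf1a, and lower for 2, Neurog1 and Neurod4, against 1.58% and 2.03% of all genes. The Ptf1a call was fixed by the filter and is read as no result. For Neurod1, Nhlh1 and Nhlh2 it did not pass. The line and day comparisons share arrays, so their values are given side by side and are not independent.

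The genes whose pattern was most like each member over the 12 arrays were found by Pearson's r on log2 values among 12273 genes, as a description over arrays that share line and day. For Nhlh2 they were Fat4, Elavl4 and Dcx, at r = 0.997, 0.997 and 0.996. For Nhlh1 they were Rnd2, Hoxa2 and Rassf4, led by r = 0.994, and Rnd2 lies on chromosome 11. For Neurog1 they were D930003E18Rik, Gbx1 and 2600006K01Rik, led by r = 0.984. For Neurog2 they were Nap1l3, Lzts1 and Prkaca, led by r = 0.9915, and Lzts1 and Prkaca lie on chromosome 8. For Neurod1 they were Tmem106b, Mthfd2l and Ccdc177, for Neurod4 Zfp703, Pcdh8 and Cyp26b1, and for Ptf1a Cacna2d1, Nav3 and Calb1, led by r = 0.960. Ptf1a was above the filter only in CAG150 cells at day 6, so its r rests mainly on those arrays. Zfp703 also lies on chromosome 8. Genes of chromosomes 8 and 11 were shifted, with median differences of CAG150 from HM1 of 0.24 and 0.228 at day 6 and 0.196 and 0.172 at day 4. No member lies on either.

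The partners and inhibitors that set proneural activity were described next. Of the 7 E protein and Id genes, all fitted, 4 were higher and 1 was lower in CAG150 cells at day 6, and 2 were higher and 2 lower at day 4. Among all genes 10.1% were higher and 11.2% lower at day 6, and 7.87% and 7.92% at day 4. Tcf12, an E protein partner, averaged 3579 ± 90.5 at day 6 in CAG150 cells and 2921 ± 131 in HM1 cells (SD, n = 3 each, adjusted p = 0.0115 by limma). At day 4 Tcf12 was 1.595-fold higher in CAG150 cells (adjusted p = 4.5e-05 by limma). The E protein gene Tcf4 passed at neither day (adjusted p = 0.173 at day 6 and 0.583 at day 4 by limma). Id2, which binds E proteins and blocks them, was 1.41-fold higher in CAG150 cells at day 6 (adjusted p = 0.00706). At day 4 it averaged 985 ± 92.0 in CAG150 cells and 1412 ± 77.8 in HM1 cells, a 1.43-fold lower value (adjusted p = 0.00818 by limma), so its order also turned round (difference between the day differences 1.02, adjusted p = 0.00366). Id4 was 1.25-fold lower in CAG150 cells at day 6 and 1.75-fold lower at day 4 (adjusted p = 0.0173 and 4.28e-05).

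Of the Notch genes, 19 of 20 were fitted, and 3 were higher and 3 lower in CAG150 cells at day 6, against 4 and 2 at day 4. At each day 13 did not pass. The shares over all genes were 10.1% higher and 11.2% lower at day 6, and 7.87% and 7.92% at day 4. Hes5, a Notch-driven repressor of proneural genes, differed by 0.39 on the log2 scale at day 6, which did not pass (adjusted p = 0.0585). At day 4 it averaged 1779 ± 270 in CAG150 cells and 639 ± 91.1 in HM1 cells, 2.74-fold higher (adjusted p = 1.67e-05, limma, n = 3 each). Hes3 was 1.46-fold lower in CAG150 cells at day 6 and 1.96-fold higher at day 4 (adjusted p = 0.0361 and 0.00195). Nrarp, a feedback target of Notch, was higher at both days, 1.34-fold at day 6 and 1.50-fold at day 4 (adjusted p = 0.00834 and 0.00147). The ligand gene Dll3 rose between the days, 2.99-fold in CAG150 cells and 2.73-fold in HM1 cells, and the lines did not differ past the threshold (adjusted p = 0.146 at day 6 and 0.481 at day 4). Dll1, Dll4, Jag1, Jag2 and Hes1 are named after their values were seen. The ligand gene Dll1 was higher in CAG150 cells, 1.37-fold at day 6 and 1.33-fold at day 4 (adjusted p = 0.0079 and 0.0177 by limma). The ligand genes Dll4, Jag1 and Jag2 passed at neither day. Unlike Hes5, Hes1 was 1.70-fold lower in CAG150 cells at day 4 (adjusted p = 0.00125) and did not pass at day 6 (0.278).

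Of the 22 genes known to act downstream of proneural factors, all fitted, 21 rose between the days in CAG150 cells and 21 in HM1 cells. Among all genes 22.5% rose in CAG150 cells and 20.4% in HM1 cells. The median log2 differences of the 22 genes were 1.80 in CAG150 and 1.75 in HM1 cells, where the median over all genes lay within 0.01 of 0. Between the lines, 9 were higher and 2 lower in CAG150 cells at day 6, and 5 higher and 1 lower at day 4. The shares over all genes were 10.1% and 11.2% at day 6, and 7.87% and 7.92% at day 4. Dcx, a microtubule protein of migrating neurons, averaged 1119 ± 41.3 at day 6 in CAG150 cells and 808 ± 67.8 in HM1 cells (adjusted p = 0.0027, limma, n = 3 each). Ebf3, a neuronal transcription factor, was 1.77-fold higher in CAG150 cells at day 6 (adjusted p = 5.47e-05). Cdkn1c, which holds the cell cycle, went the other way and was 3.74-fold lower in CAG150 cells at day 6 (adjusted p = 9.19e-08). Elavl4 did not pass between the lines at day 6 (adjusted p = 0.103 by limma). It was 1.57-fold higher in CAG150 cells at day 4 (adjusted p = 0.00174 by limma). Of the 9 genes higher at day 6, 3 lie on the shifted chromosomes, Tubb3 on 8 and Ebf1 and Cdk5r1 on 11, and are named after their values were seen. The part of that shift in their differences was not tested.

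Regional factors that act with the proneural genes split by line. Of 23, 16 were fitted, and 11 were higher and 3 lower in CAG150 cells at day 6, against 9 and 1 at day 4. Among all genes 10.1% were higher and 11.2% lower at day 6, and 7.87% and 7.92% at day 4. Tfap2b, a factor of inhibitory neuron lineages, averaged 515 ± 52.6 at day 6 in CAG150 cells and 99.7 ± 25.0 in HM1 cells, 4.64-fold higher (adjusted p = 6.8e-07, limma, n = 3 each). Dbx1, a factor of ventral interneuron progenitors, averaged 426 ± 32.5 at day 6 in CAG150 cells and 1947 ± 186 in HM1 cells, 4.44-fold lower (adjusted p = 7.37e-08, limma, n = 3 each). Pax6, a progenitor factor, was 1.32-fold lower in CAG150 cells at day 6 (adjusted p = 0.00676). Lhx1, a factor of interneurons, differed by -0.31 at day 6 (adjusted p = 0.134) and at day 4 averaged 21.8 ± 5.004 in CAG150 cells and 7.20 ± 3.65, below the filter, in HM1 cells (adjusted p = 0.00433, limma, n = 3 each). Of 14 other neural bHLH genes, 11 had a probe set and 3 were fitted. In CAG150 cells 1 was higher and 0 lower at day 6, and 1 was higher and 1 lower at day 4. Tal2, which acts in midbrain inhibitory neurons, was the higher one at both days. It averaged 98.2 ± 19.98 at day 6 in CAG150 cells and 11.1 ± 3.85, a mean below the filter, in HM1 cells (adjusted p = 1.65e-06, limma, n = 3 each). The day 4 value was 2.67-fold higher in CAG150 cells (adjusted p = 5.87e-05). Olig3, a factor of dorsal progenitors, averaged 18.1 ± 4.32 at day 4 in CAG150 cells and 31.0 ± 1.35 in HM1 cells, 1.39-fold lower (adjusted p = 0.00786, limma, n = 3 each). Tal1 passed between the lines at neither day (adjusted p = 0.371 at day 6 and 0.591 at day 4 by limma).

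**Figure D5:**
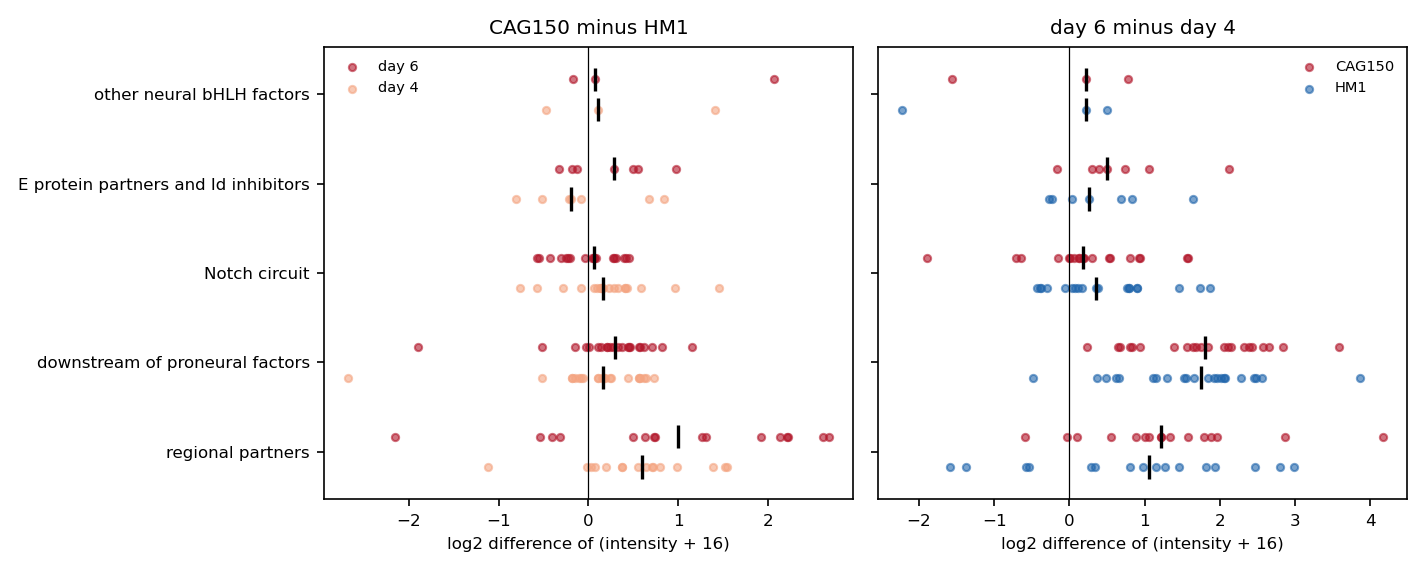
Log2 difference of every fitted gene in the lists of other neural bHLH, E protein and Id, Notch, downstream and regional genes, with CAG150 against HM1 on the left and day 6 against day 4 on the right. Points are genes and black bars medians; the downstream genes lie almost all above 0 in the comparison of days, with medians of 1.80 in CAG150 and 1.75 in HM1.

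Markers of the cells these samples could hold differed by line and day, and the sums over a list were led by few of its genes. Genes that led a sum are named after their values were seen. Tubb3, Dcx and Elavl3 are also in the downstream list, Pax6 in the regional list and Hes5 in the Notch list. Counts over lists that share genes are not independent. Beside the marker counts, 10.1% of all genes were higher and 11.2% lower in CAG150 cells at day 6, and 7.87% and 7.92% at day 4. Summed over the 6 postmitotic neuron markers, intensity was 8667 to 9634 at day 6 in CAG150 cells and 5730 to 6819 in HM1 cells, and 5 of the 6 were higher in CAG150 cells and 0 lower. Of those 5, Tubb3 (log2 difference 0.58) lies on the shifted chromosome 8 and Mapt (1.15) on the shifted chromosome 11. The part of that shift in their differences was not tested. At day 4 the sum was 1494 to 1761 in CAG150 cells and 2813 to 3095 in HM1 cells, although 3 of the 6 were higher in CAG150 cells and 1 was lower. The lower one was Stmn2, which averaged 607 in CAG150 cells and 2108 in HM1 cells.

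The 6 progenitor markers summed to 14189 to 14550 at day 6 in CAG150 cells and 12445 to 13037 in HM1 cells, where 0 were higher and 1, Pax6, was lower in CAG150 cells. At day 4 the sums were 7573 to 7810 in CAG150 cells and 5805 to 6760 in HM1 cells, and 2, Hes5 and Fabp7, were higher and 0 lower. The 5 pluripotency markers, all lower in CAG150 cells at both days, summed to 830 to 918 at day 6 in CAG150 cells and 2043 to 2361.5 in HM1 cells, and 453 to 502 at day 4 in CAG150 cells and 1410 to 1607 in HM1 cells.

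The 5 fibroblast and smooth muscle markers summed to 240.1 to 276 at day 6 in CAG150 cells and 4427 to 5366 in HM1 cells, and 378 to 441 at day 4 in CAG150 cells and 2862 to 3353 in HM1 cells. These sums were mostly Acta2 and Tagln, which averaged 162 and 38.2 at day 6 in CAG150 cells and 2889.6 and 1762 in HM1 cells. In CAG150 cells 3 of the 5 were lower at day 6 and 2 at day 4, and the collagen genes Col1a1 and Col1a2 passed at neither day (adjusted p = 0.124 to 0.278). Of the 4 fitted neural crest and sensory neuron markers, 1 was higher and 1 lower in CAG150 cells at each day. At day 6, Pou4f1 was 2.81-fold higher and Isl1 3.025-fold lower (adjusted p = 1.74e-05 and 2.82e-06 by limma), named after their values were seen. At day 6, 1 of 3 fitted visceral endoderm markers was lower and 1 of 2 fitted glia markers higher. None of either passed at day 4. The part of any of these markers in the proneural differences was not tested.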

How the data were processed

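Intensity values were deposited by the authors on a linear scale, with a mean of 150 over each array after trimming 2% at each end, as read from the values. Which software produced them is not stated in the sources at hand. The table holds 45101 probe sets: 64 controls, left out, 34945 named with a single gene symbol, 932 with more than 1, and 9160 unnamed here. The table of mouse genes (GRCm38.p6) gave chromosomes and changed 0 symbols.

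Intensities were transformed as log2(intensity + 16), with no further normalization. For each gene the singly named probe set with the highest mean was used, and the 12280 genes whose mean exceeded the 40th percentile over probe sets were kept. With limma 3.58.1 (R 4.3.3), a model with a mean per group was fitted to all 12 arrays together and moderated with eBayes, with 8 residual and 4.46 prior degrees of freedom. The 5 comparisons were CAG150 minus HM1 at each day, day 6 minus day 4 in each line, and the difference between these day differences. Benjamini-Hochberg adjustment ran over all fitted genes, separately per comparison.

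The members and the lists were chosen with earlier results of these data known. All members are named in every comparison, and from each list up to 4 genes with the smallest adjusted p. Other list genes that are named are marked as named after their values were seen. Promoter windows are from RefSeq and were scanned in Python 3.11.15. Alternatives were quantile normalization, median centring, other filters and pseudocounts, probe sets averaged by gene, every probe set, a replicate block, an intensity trend in the prior and leaving out each array. On simulated data for the line difference at day 4, the fit on 12280 genes found 50 of 100 inserted log2 changes of 0.5 and 89 of 100 of 1, beside 8 false calls. The inserted changes were the only ones, all upward and with independent normal noise. In the data 15.8% of genes passed at day 4, so the shares found need not hold there. Replicate numbers were checked as pairs, and same-numbered samples showed no strong shared deviation.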

Additional observations from a re-analysis of the deposited data

Results flagged for a closer look

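For 4 genes the day 6 minus day 4 difference was not the same in the 2 lines by a test of the difference itself, given as CAG150 minus HM1 on the log2 scale. It was -1.93 for Neurog1, 0.96 for Neurog2, -0.67 for Neurod4 and 2.44 for Ptf1a. The Neurog1 call held without each array in turn and under the other settings tried, while the Neurog2 call was lost without some arrays and the Neurod4 call with other uses of its probe sets. Ptf1a was measured above the filter in CAG150 cells at day 6 only, which fixed the direction of its value, so its call is no result.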

How the results depend on the processing

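Leaving out each array in turn gave 420 values to set beside the reported ones for the 7 fitted genes: 396 kept direction and side of the threshold, 8 lost the call, 2 gained it and 14 changed sign. The other 10 settings gave 340, of which 330 kept both, 7 lost the call and 3 changed sign. Signs changed where no difference had passed: for Neurod4 at day 6, -0.029 with quantile normalization, -0.058 with median centring and -0.21 with the mean of probe sets. Over the arrays left out, CAG150 minus HM1 ranged from -0.19 to 0.10 for Neurod1 at day 6, from -0.10 to 0.037 for Neurod1 at day 4, from -0.060 to 0.038 for Neurod4 at day 6 and from -0.16 to 0.010 for Nhlh1 at day 6. The difference between day differences of Neurod1 ranged from -0.17 to 0.12, and the Ptf1a day difference in HM1 cells from -0.0087 to 0.24. The Neurog2 difference between day differences kept its call without replicate 2 of CAG150 at either day, replicate 3 of HM1 at day 6 or replicate 1 of HM1 at day 4, and lost it without any 1 of the other arrays, with no filter (adjusted p = 0.0513), with a pseudocount of 1 (0.227) and with every probe set (0.0936). For Neurod4 it was lost with every probe set (0.0587). With a pseudocount of 1, or with every probe set, the difference between day differences called 2 members against 4. Ptf1a could not be fitted with a pseudocount of 1 or with the filter at the 60th percentile, where it fell below the filter. Over all genes, every probe set gave 1691 calls at day 6 against 2624, 1093 at day 4 against 1940, and 181 for the difference between day differences against 443. For the last, no filter gave 295, and leaving out an array gave 270 to 362, with 270 without replicate 3 of CAG150 at day 6 and 295 without replicate 2 of CAG150 at day 4; the cause was not tested. Median centring lowered the share of calls that were higher to 33.4% against 47.4% at day 6, 31.4% against 49.9% at day 4, and between days 36.2% against 50.6% in CAG150 and 36.2% against 52.4% in HM1 cells, and moved the median of all genes in the HM1 day comparison to -0.11. No member's call changed with it. Same-numbered samples showed no strong shared deviation: 2 of 18 pairs of deviations correlated above 0.1 (range -0.133 to 0.122). With 3 arrays per group this cannot tell if same-numbered samples were handled together. With the replicate block the difference between day differences called 396 genes, and Neurog2 had an adjusted p of 0.0508. Genes near the filter, Neurog3 and Atoh1, are limited by signal over background.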
